A study of Mus musculus with 12 samples.

Results

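The expression of 37 genes of autophagy and of the lysosome was measured in mouse gastrocnemius, a muscle of the calf, in young and old animals of 2 genotypes. The genes were taken from a list of 38 names, each matched exactly to the symbol of a probe set that names 1 gene, and 37 were matched among 18194 genes on the array (Bnip3l was not analysed here). Total RNA was hybridised to Affymetrix mouse arrays, with 3 arrays in each of 4 groups and 12 in all. The groups were young (10 week) wild-type, young knock-out, old (24 month) wild-type and old knock-out mice, all labelled C57Bl/6N/6J/129. Knock-out stands for a muscle-specific deletion of Ppargc1a, which encodes the coactivator PGC-1alpha, by a cre labelled myogenin-cre, so that cells of the muscle other than fibres should keep the gene. The labels state neither the sex of the mice nor which alleles the wild-type mice carried. Nothing in them ties each array to an animal of its own, and p-values here therefore reflect the spread between samples that may be technical replicates.

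Autophagy encloses cytoplasm, protein aggregates or organelles in a double membrane that fuses with the lysosome. The ULK kinases and the Beclin 1 complex start the membrane, a conjugation system attaches proteins of the ATG8 family (the LC3 and GABARAP proteins) to it, and receptors such as p62 tie cargo to these proteins. Inside the lysosome, acid hydrolases such as the cathepsins break the cargo down, and the transcription factor TFEB induces many genes of this pathway through a short motif in their promoters. In skeletal muscle the pathway clears damaged mitochondria and supplies amino acids during fasting and disuse.

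The values are log2 signals, and array medians lay between 6.19 and 6.25. All 37 genes had a mean signal at or above 6.22, the median of all probe sets. An adjusted p is limma's p after Benjamini-Hochberg adjustment over 18194 genes with a threshold of 0.05, and values after ± are standard errors from that fit (n = 3 arrays per group) unless an SD is named. The signal of Ppargc1a itself was no lower on knock-out than on wild-type arrays. Its 5 probe sets read 0.42 to 0.58 higher in young knock-out than in young wild-type arrays and 0.29 to 0.49 higher in old ones, and no probe set passed a test of genotype, so a genotype below is the one on the label. Old knock-out array 1 stood above the other arrays of its group in Ctsl, Gabarapl1, Npc1, Bnip3 and Map1lc3b, among others, and below them in Ctsk. The values of these named genes that rest on it are given with and without it. It was also the highest of its group in Ctsd, at 13.38 beside 12.56 and 12.80.

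With both genotypes averaged, 16.2% of all genes and 23.3% of those with a mean of at least 6.22 were called with age in either direction. Of the 37 genes, 7 (18.9%) rose with age and 0 fell. They were Sqstm1, which encodes the receptor p62, the ATG8 family genes Gabarapl1, Gabarapl2 and Map1lc3a, the cathepsin gene Ctsz, the hydrolase gene Hexa and the membrane protein gene Laptm4a. With genotype averaged over ages, Ctsz, Hexa and Npc2 (8.11%) were higher in knock-out muscle and 0 genes were lower on the probe set used. The shares called in either direction were 4.22% of all genes and 6.00% of those with a mean of at least 6.22. The remaining 29 genes, among them every initiation and conjugation gene on the list, did not pass in any comparison on the probe set used.

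**Figure D1:**
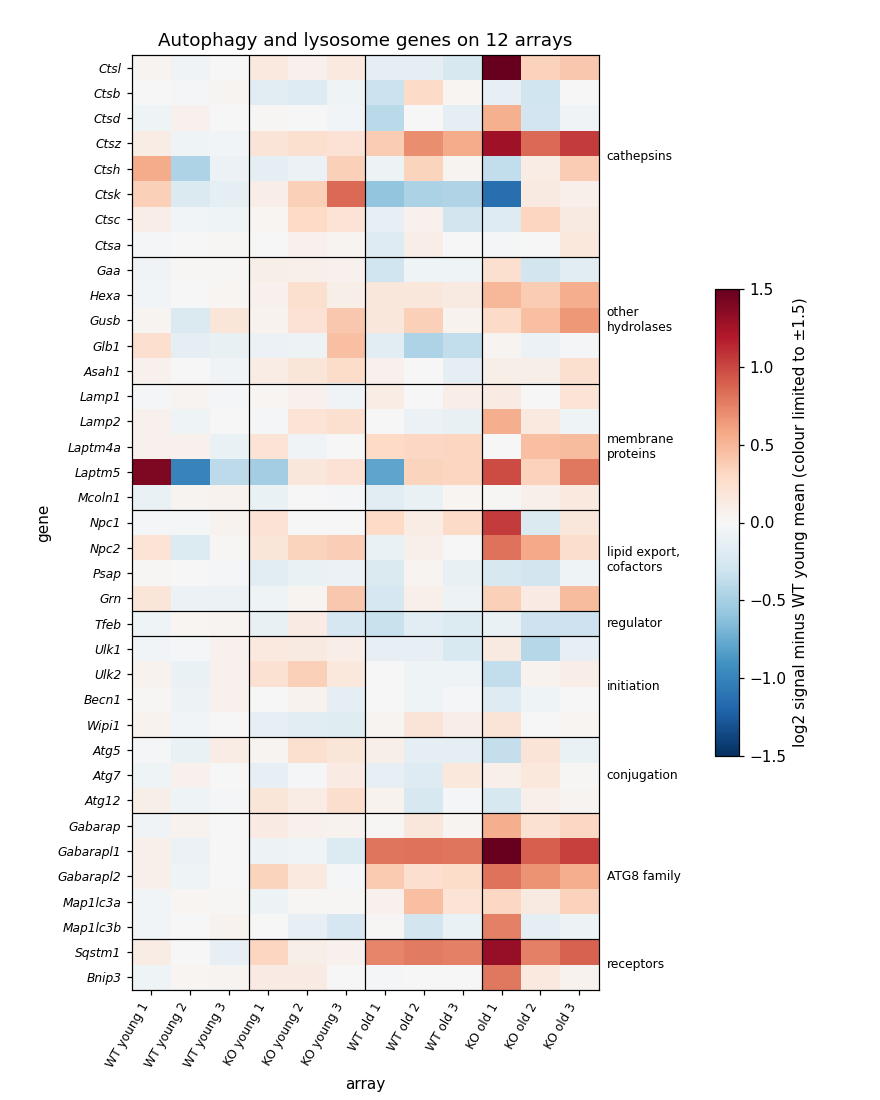
Heat map of the 37 genes (rows, grouped by role) on the 12 arrays (columns). Colour gives the log2 signal minus the mean of the young wild-type arrays, limited to 1.5 in either direction. Sqstm1, Gabarapl1 and Ctsz were above the young wild-type mean on all 6 old arrays, and old knock-out array 1 had the highest value of Ctsl, at 14.15.

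The promoters of the 3 genes with the smallest p are shown first, since these genes rose together with age. The sequences are the 250 bases before the annotated start, from RefSeq GRCm38.p6, printed 5′ to 3′ on the strand of the gene. Ctsz lies at chr2:174439040-174439289 on the minus strand, Sqstm1 at chr11:50210821-50211070 on the minus strand and Gabarapl1 at chr6:129532942-129533191 on the plus strand. Capitals mark a match to the core of the antioxidant response element, TGACNNNGC, which NRF2 binds.
Ctsz: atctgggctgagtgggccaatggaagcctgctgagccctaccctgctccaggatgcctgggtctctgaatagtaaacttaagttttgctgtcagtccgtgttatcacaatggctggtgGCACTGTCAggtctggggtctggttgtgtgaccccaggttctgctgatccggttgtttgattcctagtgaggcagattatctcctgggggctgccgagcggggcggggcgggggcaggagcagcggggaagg
Sqstm1: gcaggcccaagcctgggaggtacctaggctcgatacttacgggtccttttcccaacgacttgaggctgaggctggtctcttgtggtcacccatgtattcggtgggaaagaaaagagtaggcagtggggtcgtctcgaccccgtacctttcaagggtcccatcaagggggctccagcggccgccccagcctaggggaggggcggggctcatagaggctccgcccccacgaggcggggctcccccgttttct
Gabarapl1: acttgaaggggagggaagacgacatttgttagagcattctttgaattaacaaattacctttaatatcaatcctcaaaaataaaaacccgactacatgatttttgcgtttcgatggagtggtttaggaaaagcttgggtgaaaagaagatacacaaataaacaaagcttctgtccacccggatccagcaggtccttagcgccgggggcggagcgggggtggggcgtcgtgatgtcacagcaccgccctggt

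Another pair is shown because it carries the TFEB motif in repeated copies. These are the last 110 bases before the start of Lamp1 (chr8:13159051-13159160, plus strand) and of Mcoln1 (chr8:3500409-3500518, plus strand), chosen after the matches had been counted. Capitals mark TCACGTG, the core of the motif that TFEB binds, on either strand. Its palindrome, CACGTG, stands 4 times in this stretch of Lamp1 and 2 times in that of Mcoln1.
Lamp1: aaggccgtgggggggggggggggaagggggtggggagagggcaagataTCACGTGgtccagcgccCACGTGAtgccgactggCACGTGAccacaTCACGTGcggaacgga
Mcoln1: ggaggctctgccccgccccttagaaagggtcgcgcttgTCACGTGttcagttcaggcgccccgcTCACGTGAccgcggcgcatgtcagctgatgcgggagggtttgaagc

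The RefSeq promoter table used here held an entry for 30 of the 37 genes. The palindrome CACGTG, which is part of TCACGTG, was found on either strand in the 250 bases before the start of 10 of these 30 (33.3%), against 6.86% of 27025 genes of the table. The 10 were Atg5, Atg7, Bnip3, Ctsa, Ctsd, Ctsl, Gaa, Glb1, Lamp1 and Mcoln1. The longer TCACGTG was found in 7 of 30 (23.3%), against 3.58% of all genes. The antioxidant core TGACNNNGC was found in 5 of 30 (Ctsd, Ctsz, Hexa, Psap and Ulk2; 16.7%), against 11.5%. The ERR motif TCAAGGTCA was found in Psap alone (3.33%, against 0.422%), and the FoxO motif TGTTTAC in 0 of 30 (against 3.54%). Of the genes that rose with age or were higher in knock-out muscle, Map1lc3a had no entry in it, and the windows of Ctsz, Sqstm1, Gabarapl1, Gabarapl2, Hexa, Npc2 and Laptm4a held no CACGTG. The shares of all genes are over the whole table, whatever their signal in muscle, and a background of bright genes was not counted. A match here is a string of letters in a window and not a measured site.

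The comparison of old with young muscle gave the most calls. In wild-type muscle 2 of the 37 genes (5.41%) rose and 0 fell, beside 3.62% of all genes called and 1.65% called as higher. In knock-out muscle 5 (13.5%) rose and 0 fell, beside 10.3% called and 4.85% called as higher. Averaged over genotypes 7 (18.9%) rose and 0 fell, beside 16.2% called and 7.58% called as higher. Bright genes are called more often: among the 11354 genes with a mean of at least 6.22, 5.37%, 14.8% and 23.3% were called in either direction. The share of the 37 genes called in these 3 comparisons lay near that background. Of the bright genes 273, 768 and 1198 were called as higher, a smaller share than that of the 37 genes. This difference in shares was not tested, and the 37 genes were chosen with earlier results of these data known. Without old knock-out array 1, 6 genes rose and 1 (Ulk1) fell in knock-out muscle, and 6 rose and 2 (Gaa and Ulk1) fell averaged over genotypes.

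The list as a whole had a median difference near 0 with age. This median difference of the 37 genes was -0.03 for the wild-type and 0.10 for the knock-out, beside 0.0020 and -0.0049 over all genes. Of the 37 genes, 13 were higher in old wild-type and 23 higher in old knock-out muscle than in young muscle of the same genotype. The 3 arrays of a group did not overlap with those of the other group for 14 genes (8 higher, 6 lower; 37.8%) in wild-type muscle, beside 26.2% of all and 35.0% of bright genes. In knock-out muscle this held for 13 genes (11 higher, 2 lower; 35.1%), beside 28.7% of all and 36.6% of bright genes. All 6 old arrays were above all 6 young arrays for 4 genes, Ctsz, Gabarapl1, Map1lc3a and Sqstm1 (10.8%), and below them for 0, beside 8.37% of all and 12.7% of bright genes in either direction. These shares lay near those of bright genes.

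**Figure D2:**
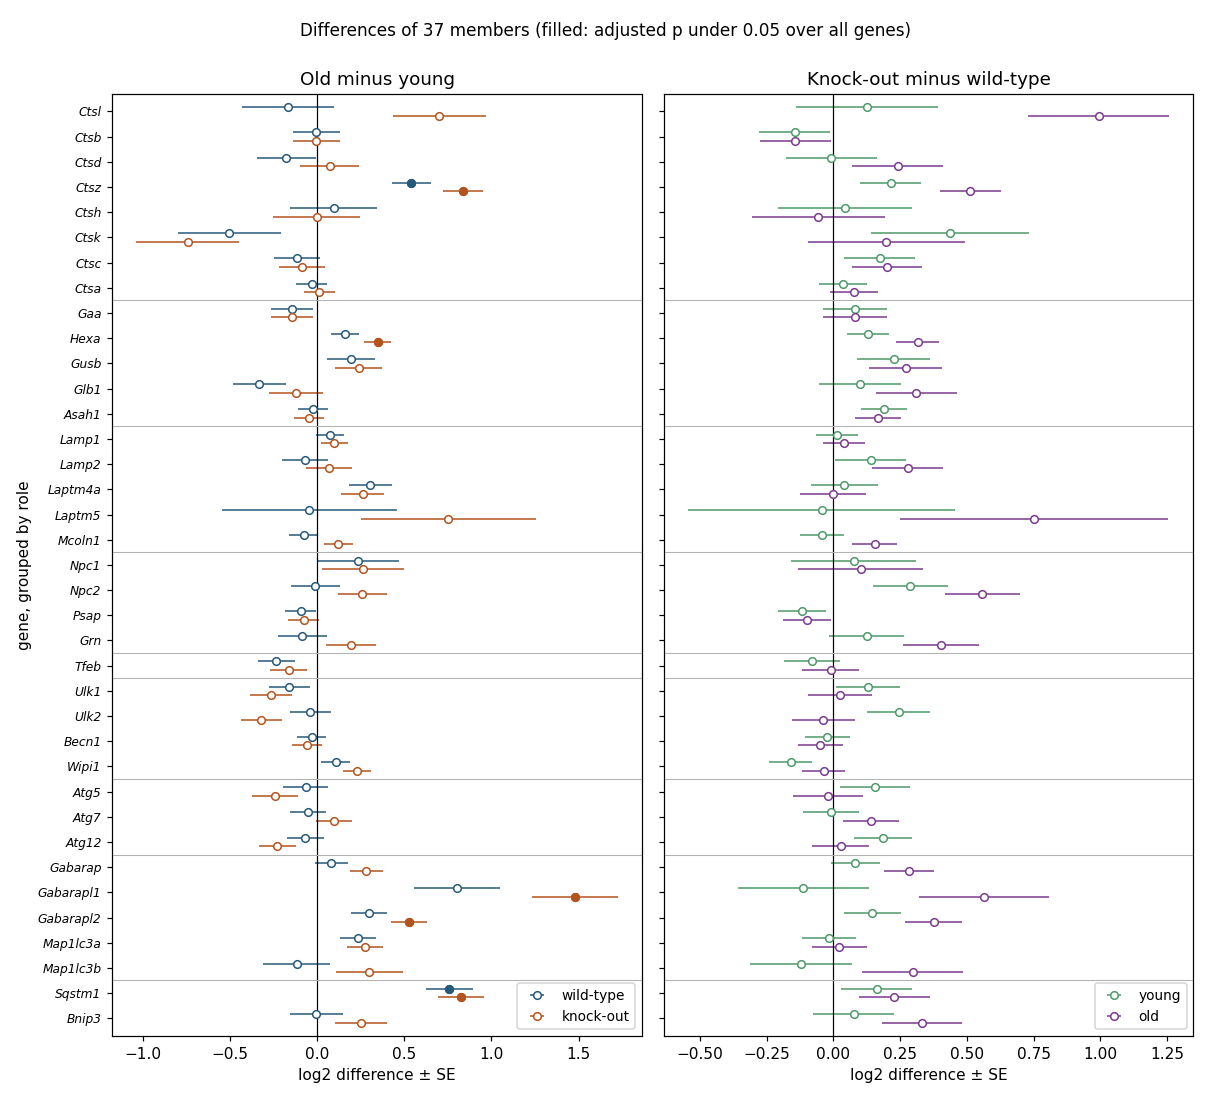
Log2 differences (x axis, ± SE from limma) of the 37 genes (y axis, grouped by role). The left panel gives the difference with age for each genotype, and the right panel the difference of the genotypes at each age. Filled points passed the adjusted threshold of 0.05, and 0 points of the right panel did.

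Sqstm1 encodes p62, the receptor that binds ubiquitinated cargo and ATG8 proteins and is itself degraded by autophagy. The log2 signal of Sqstm1 was 12.62, 12.50 and 12.39 on the young wild-type arrays and 13.24, 13.29 and 13.26 on the old wild-type arrays. It was 12.83, 12.60 and 12.57 on the young knock-out arrays and 13.82, 13.26 and 13.39 on the old knock-out arrays. Every old array was above every young array of either genotype, and old knock-out array 1 was the highest. Sqstm1 rose 1.69-fold with age in wild-type muscle (log2 difference 0.76 ± 0.13, adjusted p = 0.00990) and 1.77-fold in knock-out muscle (0.82 ± 0.13, adjusted p = 0.00329). Without old knock-out array 1 the rise in knock-out muscle was 0.66 (adjusted p = 0.00466). The call in wild-type muscle was lost without young wild-type array 3 (adjusted p = 0.0565). A dimmer probe set of Sqstm1 differed by 0.56 with age averaged over genotypes (adjusted p = 0.00868 over all 34958 probe sets that name 1 gene).

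Bnip3, the other receptor gene measured, encodes a mitochondrial protein that recruits ATG8 proteins to mitochondria. Its log2 signal was 13.77, 13.86 and 13.87 on young wild-type, 13.95, 13.95 and 13.82 on young knock-out, 13.81, 13.84 and 13.84 on old wild-type and 14.62, 13.98 and 13.88 on old knock-out arrays. The groups were close, apart from old knock-out array 1. Old minus young was -0.0054 ± 0.15 for the wild-type and 0.25 ± 0.15 for the knock-out, and neither passed. Without old knock-out array 1 the latter was 0.02 (adjusted p = 0.919).

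The ATG8 family showed rises in 3 of its 5 measured genes with age averaged over genotypes. These proteins are attached to the lipid of the growing membrane, where they hold receptors and help it close and fuse. Gabarapl1 differed most. Its log2 signal was 10.59, 10.42 and 10.52 on the young wild-type arrays and 11.31, 11.32 and 11.31 on the old wild-type arrays. It was 10.43, 10.46 and 10.31 on the young knock-out arrays and 12.69, 11.41 and 11.54 on the old knock-out arrays. The old arrays all lay above the young ones, the old wild-type arrays were nearly equal, and old knock-out array 1 lay far above the rest. Gabarapl1 rose 2.79-fold in knock-out muscle (1.48 ± 0.245, adjusted p = 0.00369) and by 1.08 on the log2 scale without old knock-out array 1 (adjusted p = 0.000113). The difference in wild-type muscle, 0.80 ± 0.245, did not pass (adjusted p = 0.104), and passed in the fit without old knock-out array 1. The second probe set of Gabarapl1 read 1.02 higher with age for the wild-type, which did not pass, and 1.78 higher for the knock-out, which passed.

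Gabarapl2 encodes GATE-16, a close relative that also takes part in transport through the Golgi. Gabarapl2 had a log2 signal of 11.43, 11.29 and 11.34 on the young wild-type arrays and 11.74, 11.60 and 11.62 on the old wild-type arrays. It was 11.68, 11.50 and 11.32 on the young knock-out arrays and 12.17, 12.02 and 11.90 on the old knock-out arrays. Within each genotype the old arrays were above the young ones, while young knock-out array 1 reached the level of the old wild-type arrays. Gabarapl2 rose 1.44-fold with age in knock-out muscle (0.53 ± 0.11, adjusted p = 0.00952), and 1.33-fold averaged over genotypes (0.41 ± 0.07, adjusted p = 0.00302). In wild-type muscle the difference was 0.30 ± 0.11 (adjusted p = 0.163). The call in knock-out muscle was lost when the 2 probe sets of the gene were averaged (adjusted p = 0.0644), of which the dimmer differed by 0.08, and when only the 2 groups were fitted (0.0629).

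Gabarap, the founding member of the GABARAP branch, did not pass. Its log2 signal was 12.28, 12.38 and 12.33 on young wild-type, 12.45, 12.40 and 12.38 on young knock-out, 12.35, 12.50 and 12.37 on old wild-type and 12.88, 12.56 and 12.64 on old knock-out arrays. The old knock-out arrays lay above all the others, whose ranges overlapped or nearly touched. Old minus young in knock-out muscle was 0.28 ± 0.09 (adjusted p = 0.0748).

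Of the LC3 genes, Map1lc3a rose with age averaged over genotypes and Map1lc3b did not pass. Map1lc3a had a log2 signal of 13.65, 13.72 and 13.71 on young wild-type, 13.61, 13.71 and 13.71 on young knock-out, 13.75, 14.14 and 13.90 on old wild-type and 14.00, 13.83 and 14.03 on old knock-out arrays. All old arrays were above all young arrays, by a small margin for old wild-type array 1. The rise of Map1lc3a was 1.19-fold (0.25 ± 0.07, adjusted p = 0.0312). That call was lost without any 1 of 10 of the 12 arrays, all but old wild-type array 1 and old knock-out array 2. The second probe set of Map1lc3a differed more, by 0.67 (adjusted p = 0.000949). Map1lc3b had group means of 13.08, 12.96, 12.97 and 13.26 on young wild-type, young knock-out, old wild-type and old knock-out arrays. The old knock-out arrays read 13.84 on array 1 and 12.95 or slightly more on the others, so that array 1 set the mean. On the probe set used here its difference with age in knock-out muscle was 0.30 ± 0.19 (adjusted p = 0.370) and 0.01 without that array (adjusted p = 0.968), while another bright probe set read 1.15 (adjusted p = 0.0104 over all probe sets).

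**Figure D3:**
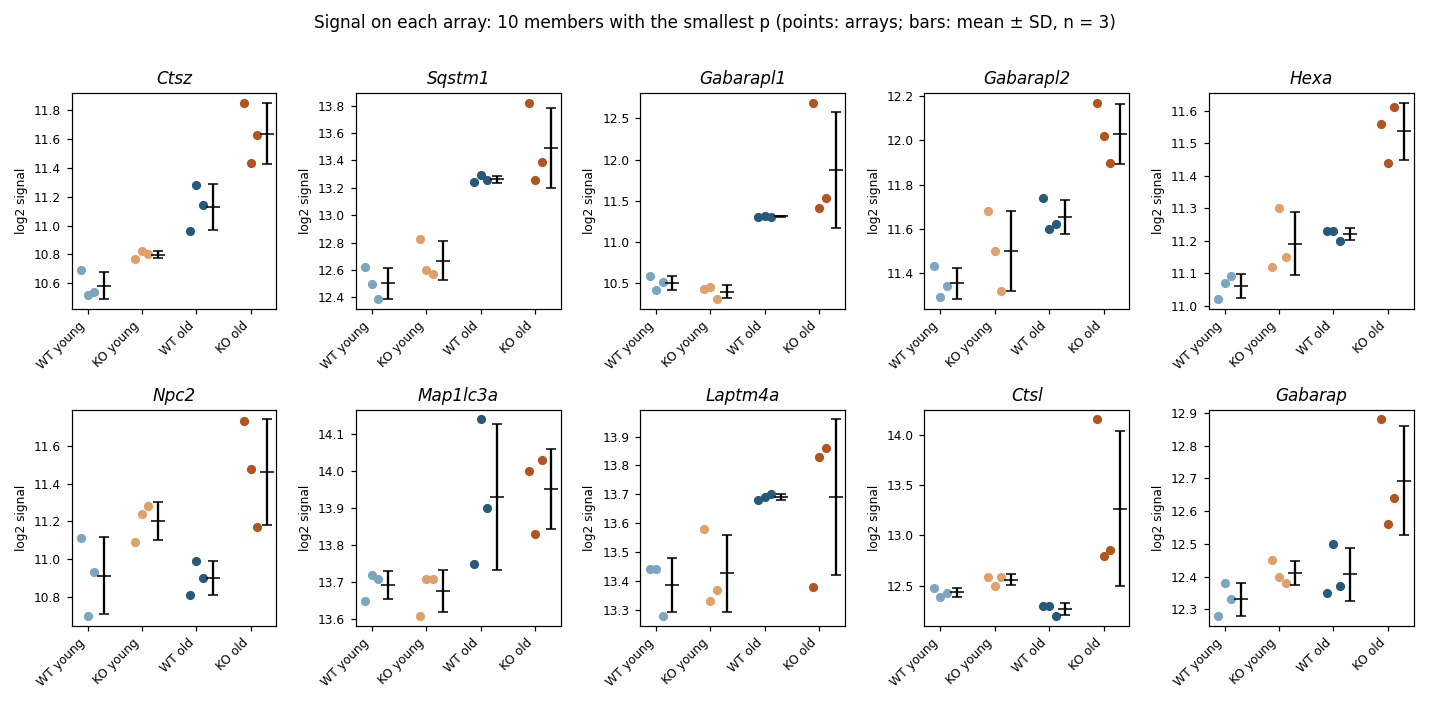
Log2 signal (y axis) of 10 genes on each array, the 8 genes that passed in any comparison and the 2 next by p, by group (x axis). Points are arrays and bars are the mean ± SD of 3 arrays. Sqstm1, Gabarapl1, Ctsz and Map1lc3a are higher on all 6 old arrays than on all 6 young arrays, and old knock-out array 1 is the highest point of Ctsl, at 14.15, and of Gabarapl1, at 12.69.

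Genes of the earlier steps did not pass with age. Ulk1 and Ulk2 encode the kinases that start autophagy, Becn1 encodes Beclin 1 of the lipid kinase complex, and Wipi1 encodes a protein that reads its product. Averaged over genotypes their differences with age were -0.21 ± 0.08 for Ulk1, -0.18 ± 0.08 for Ulk2, -0.04 for Becn1 and 0.17 ± 0.06 for Wipi1, with adjusted p of 0.115, 0.175, 0.685 and 0.0668. The Ulk1 signal was 11.07, 11.05 and 11.02 on young knock-out arrays and 11.06, 10.49 and 10.80 on old knock-out arrays, so old knock-out array 1 stood at the young level. Without that array Ulk1 was called as lower with age in knock-out muscle. The probe sets of Wipi1 disagreed in direction. The brightest read 0.23 higher in old than in young knock-out muscle, and a dimmer one read -0.68 (adjusted p = 0.00112 over all probe sets). For Becn1 a second bright probe set rose with age by 0.38 (adjusted p = 0.00959), against -0.04 on the one used.

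Atg5, Atg7 and Atg12 encode the conjugation machinery, in which ATG7 activates ATG12 and the ATG8 proteins, and ATG12 is joined to ATG5. None of the 3 passed in any comparison on the probe set used, while a dimmer probe set of Atg5 read -0.26 with age averaged over genotypes (adjusted p = 0.0324 over all probe sets). Their differences with age in wild-type muscle lay between -0.07 and -0.05, and in knock-out muscle between -0.24 and 0.10. Tfeb, the regulator of lysosome genes, read 9.82 on average on young wild-type, 9.74 on young knock-out, 9.59 on old wild-type and 9.58 on old knock-out arrays. Its difference with age averaged over genotypes, -0.20 ± 0.07, did not pass (adjusted p = 0.0948).

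Among the 8 cathepsin genes, Ctsz rose with age and the other 7 did not pass. Ctsz encodes cathepsin Z, a carboxypeptidase of the lysosome that is also made by macrophages. The log2 signal of Ctsz was 10.69, 10.52 and 10.54 on the young wild-type arrays and 10.96, 11.28 and 11.14 on the old wild-type arrays. It was 10.77, 10.82 and 10.80 on the young knock-out arrays and 11.85, 11.43 and 11.63 on the old knock-out arrays. The 4 groups did not overlap, with young wild-type lowest and old knock-out highest. Ctsz rose 1.45-fold with age in wild-type muscle (0.54 ± 0.11, adjusted p = 0.0243) and 1.79-fold in knock-out muscle (0.84 ± 0.11, adjusted p = 0.00132). Without old knock-out array 1 the latter was 0.73 (adjusted p = 0.00342). The call in wild-type muscle was lost without young wild-type array 2 or 3, without old wild-type array 2 or 3, and with the mean of its 3 probe sets (adjusted p of 0.0816 to 0.108).

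Ctsl encodes cathepsin L, a cysteine protease that rises in wasting muscle. Ctsl read log2 12.48, 12.39 and 12.43 on young wild-type, 12.59, 12.50 and 12.59 on young knock-out, 12.30, 12.30 and 12.20 on old wild-type and 14.15, 12.79 and 12.85 on old knock-out arrays. The groups did not overlap: old wild-type was lowest and old knock-out highest, with array 1 far above the rest of its group. Old minus young was -0.17 ± 0.265 for the wild-type and 0.70 ± 0.265 for the knock-out (adjusted p = 0.117 in the latter), and 0.26 for the knock-out without array 1 (adjusted p = 0.0711). A dimmer probe set of Ctsl read -0.88 with age in wild-type muscle (adjusted p = 0.0247 over all probe sets). Averaged over genotypes that probe set read -0.52 (adjusted p = 0.018), against 0.27 on the one used.

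Ctsk, the gene of the collagen-degrading cathepsin K, had the lowest difference with age. Its log2 signal was 8.18, 7.61 and 7.69 on young wild-type, 7.93, 8.19 and 8.68 on young knock-out, 7.24, 7.36 and 7.38 on old wild-type and 6.70, 7.96 and 7.91 on old knock-out arrays. The wild-type groups were apart and the knock-out groups overlapped. In knock-out muscle the difference of Ctsk with age was -0.74, and -0.33 without old knock-out array 1. Averaged over genotypes it was -0.62 ± 0.21 (adjusted p = 0.0624), and -0.42 without that array (adjusted p = 0.0631). It passed as lower without old knock-out array 2, without array 3, and when only bright genes were tested. The other cathepsin genes, Ctsb, Ctsd, Ctsh, Ctsc and Ctsa, had differences with age between -0.18 and 0.10 in the 2 genotypes on the probe set used. Dimmer probe sets of Ctsb and Ctsc read -0.42 (adjusted p = 0.0213 over all probe sets) and -0.63 (adjusted p = 0.0132) averaged over genotypes.

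Of 5 further hydrolase genes, Hexa rose with age. Hexa encodes the alpha subunit of beta-hexosaminidase, which trims gangliosides. Hexa had a log2 signal of 11.02, 11.07 and 11.09 on the young wild-type arrays and 11.23, 11.23 and 11.20 on the old wild-type arrays. It was 11.12, 11.30 and 11.15 on the young knock-out arrays and 11.56, 11.44 and 11.61 on the old knock-out arrays. The old knock-out arrays were above all the others, and young knock-out array 2 lay above the old wild-type arrays. Hexa rose 1.27-fold in knock-out muscle (0.35 ± 0.08, adjusted p = 0.0181) and 1.19-fold averaged over genotypes (0.25 ± 0.06, adjusted p = 0.00921). The call in knock-out muscle was lost without young knock-out array 1 or 3 (adjusted p of 0.0626 and 0.0700) and with only the 2 groups fitted (0.0958). Gaa (acid alpha-glucosidase, which degrades glycogen), Gusb (beta-glucuronidase), Glb1 (beta-galactosidase) and Asah1 (acid ceramidase) did not pass with age, with differences averaged over genotypes of -0.14, 0.22, -0.23 and -0.03.

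The lysosomal membrane genes included 1 that rose with age averaged over genotypes, Laptm4a, a small protein of the lysosomal membrane. The log2 signal of Laptm4a was 13.44, 13.44 and 13.28 on young wild-type, 13.58, 13.33 and 13.37 on young knock-out, 13.68, 13.69 and 13.70 on old wild-type and 13.38, 13.83 and 13.86 on old knock-out arrays. Old arrays were above the young ones except old knock-out array 1, which lay among the young arrays. The rise of Laptm4a was 1.22-fold (0.28 ± 0.09, adjusted p = 0.0455), and 0.36 without old knock-out array 1 (adjusted p = 0.00315). The call was lost without any 1 of 10 arrays, all but young knock-out array 1 and old knock-out array 1. Lamp1 and Lamp2, the main glycoproteins of the lysosomal membrane, and Mcoln1, its calcium channel, had differences with age between -0.08 and 0.12 in the 2 genotypes on the probe set used. Other probe sets of Lamp2 read 0.21, 0.37 and 0.60 with age in knock-out muscle and 0.08, -0.14 and 0.12 in wild-type muscle, and none passed. Laptm5, a lysosomal protein of blood cells, varied most between arrays of 1 group, at 9.41, 7.01 and 7.63 on the young wild-type arrays.

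The lipid export genes Npc1 and Npc2, the cofactor gene Psap, whose product is cut into saposins, and the progranulin gene Grn did not pass with age on the probe set used. Their differences on it lay between -0.10 and 0.24 in wild-type and between -0.08 and 0.26 in knock-out muscle. Another bright probe set of Npc2 read 0.36 with age in knock-out muscle (adjusted p = 0.0496 over all probe sets) and 0.06 in wild-type muscle, which did not pass. Npc1 read 11.31, 10.04 and 10.43 on the old knock-out arrays, so that 1 array set its mean: the difference with age in knock-out muscle was 0.26 with array 1 and -0.10 without it.

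RNA quality measures differed between young and old arrays, and markers of other cells changed with age. The mean of the 18S control probe sets was 13.8 ± 0.0422 and 13.7 ± 0.474 (SD) on young wild-type and knock-out arrays, and 12.1 ± 0.307 and 12.4 ± 0.646 on old ones. The 5′ minus 3′ difference of Gapdh was -0.236 to -0.0846 on the young and -0.0433 to 0.0183 on the old arrays. Of 8 fibroblast markers, all above 6.22, 4 fell with age averaged over genotypes and 0 rose: Col1a1 (-3.50 ± 0.42), Col1a2 (-2.46 ± 0.37), Pdgfrb (-0.91 ± 0.10) and Dcn (-0.50 ± 0.11). The mean over the 8 was 11.03 to 12.03 on young and 9.14 to 10.69 on old arrays. Of 9 endothelial markers 2 fell (Cdh5 and Tie1), and of 12 muscle fibre markers, all above 6.22, 0 passed. Of 16 macrophage markers 1 rose, Cd68, by 1.98 ± 0.29 on the log2 scale (adjusted p = 0.000775), and by 2.87 ± 0.41 in knock-out muscle alone (adjusted p = 0.00164). The part of RNA quality and cell makeup in the age differences was not tested, and in whole muscle fewer cells of a type cannot be told apart from less RNA per cell.

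The next comparison was that of the genotypes. In young muscle 0 of the 37 genes passed, beside 0.192% of all genes. In limma 1 (Asah1) was under an unadjusted p of 0.05, beside 11.3% of all and 13.2% of bright genes. In old muscle 0 passed on the probe set used, beside 1.32% of all genes. Under an unadjusted p of 0.05 there were 9, beside 19.3% of all and 23.1% of bright genes. A dimmer probe set of Wipi1 read lower in the knock-out, at -0.55 in old muscle (adjusted p = 0.0194 over all probe sets). Averaged over ages it read -0.32 (adjusted p = 0.0237), against -0.04 in old muscle and -0.10 averaged on the one used. Averaged over ages 3 genes (8.11%) were higher in knock-out muscle and 0 lower, beside 4.22% of all genes called, 1.71% called as higher, and 6.00% called among bright genes. The calls were Ctsz, Npc2 and Hexa. These 3 did not hold without single arrays: 0 genes passed without young wild-type array 2 or 3, young knock-out array 2 or 3, or old wild-type array 1 or 3, and 1 passed without young knock-out array 1 (Npc2) or old wild-type array 2 (Ctsz).

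Most genes of the list read slightly higher in the knock-out arrays. The median difference was 0.08 in young and 0.17 in old muscle, beside -0.0080 and -0.020 over all genes and 0.03 and 0.03 over bright genes. Of the 37 differences, 25 and 28 were above 0 (67.6% and 75.7%), beside 57.9% and 55.3% of bright genes. In young muscle 12 genes had groups that did not overlap (9 higher, 3 lower; 32.4%), beside 20.8% of all and 25.7% of bright genes. In old muscle 12 genes did so as well, all 12 higher (32.4%), beside 23.8% of all and 26.8% of bright genes. All 6 knock-out arrays were above all 6 wild-type arrays for 2 genes, Ctsl and Asah1 (5.41%), beside 2.87% of all and 4.03% of bright genes in either direction. The 12 in old muscle were Ctsl, Ctsz, Hexa, Glb1, Asah1, Laptm5, Npc2, Grn, Gabarap, Gabarapl1, Gabarapl2 and Bnip3.

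Npc2 encodes a small protein that binds cholesterol in the lumen of the lysosome and hands it to NPC1. Npc2 had a log2 signal of 11.11, 10.70 and 10.93 on young wild-type and 11.09, 11.24 and 11.28 on young knock-out arrays. It was 10.81, 10.99 and 10.90 on old wild-type and 11.73, 11.48 and 11.17 on old knock-out arrays. The old groups did not overlap, and in young muscle 1 wild-type array lay within the knock-out range. Npc2 was 1.34-fold higher in knock-out muscle averaged over ages (0.42 ± 0.10, adjusted p = 0.0348), and 0.36 without old knock-out array 1 (adjusted p = 0.0466). In old muscle the difference was 0.56 ± 0.14 (adjusted p = 0.0735). A second bright probe set of Npc2 read 0.33 averaged over ages (adjusted p = 0.0333 over all probe sets), and 2 dim ones read 0.08 and -0.03.

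Ctsz was 1.29-fold higher in knock-out muscle averaged over ages (0.36 ± 0.08, adjusted p = 0.0291), with the arrays given above. The difference was 0.22 ± 0.11 in young and 0.51 ± 0.11 in old muscle, where it had the smallest adjusted p of the list (0.0531). Hexa was 1.17-fold higher averaged over ages (0.22 ± 0.06, adjusted p = 0.0479), and the call was lost without old knock-out array 1 (0.0564). Ctsl differed by 0.99 ± 0.265 in old muscle (adjusted p = 0.0841). Without old knock-out array 1 it differed by 0.55 ± 0.08 and passed (adjusted p = 0.0123), it passed without array 3 as well, and every array of the group lay above every wild-type array. Grn, which encodes progranulin, differed by 0.40 ± 0.14 (adjusted p = 0.159) in old muscle. Asah1 differed by 0.19 ± 0.09 in young and 0.17 ± 0.09 in old muscle.

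Markers of macrophages were read on the same arrays. The mean of 16 macrophage markers was 7.09 to 7.40 on young wild-type, 7.12 to 7.65 on young knock-out, 6.97 to 7.79 on old wild-type and 7.75 to 8.17 on old knock-out arrays. Of the 16, 13 read higher in the knock-out in young and 15 in old muscle, with median differences of 0.34 and 0.63. Of bright genes 57.9% and 55.3% read higher. After adjustment 0 of the 16 passed in young and 1 in old muscle, and 3 (Itgam, Cd14 and Aif1) had means below 6.22. The 1 was Cd68, a lysosomal protein of macrophages, with means of 6.07 and 6.45 on young wild-type and knock-out arrays and 7.15 and 9.32 on old ones (old knock-out minus old wild-type 2.17 ± 0.41, adjusted p = 0.0256). Averaged over ages Cd163 and Cd68 were higher. Of 7 adipocyte markers 0 passed, with a mean of 8.08 to 8.70 on old wild-type and 8.12 to 10.6 on old knock-out arrays. Of 9 endothelial markers 8 read lower in knock-out muscle averaged over ages, and 1 of these passed (adjusted p = 0.0423). Of 8 lymphocyte markers the mean reached 7.09 on 1 young wild-type array and lay at 5.72 to 6.38 on the others. The 5′ minus 3′ difference of Actb, a measure of RNA quality, was -0.334 to -0.231 on young wild-type, -0.257 to -0.157 on young knock-out, -0.140 to -0.112 on old wild-type and -0.109 to 0.0505 on old knock-out arrays. The part of these cells and of RNA quality in the genotype differences was not tested.

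**Figure D4:**
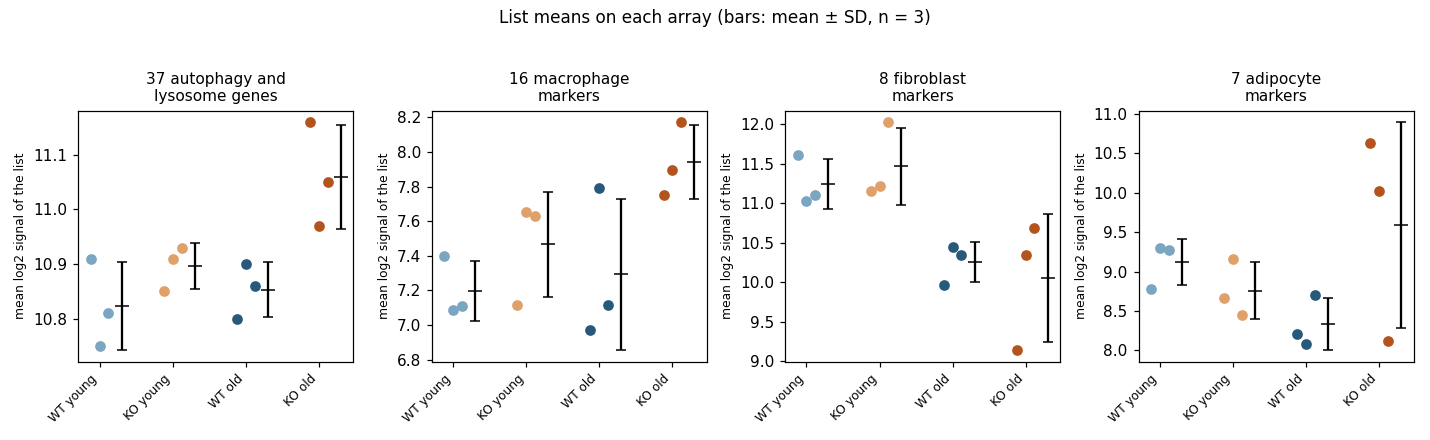
Mean log2 signal (y axis) of the 37 genes and of 16 macrophage, 8 fibroblast and 7 adipocyte markers on each array, by group (x axis). Points are arrays and bars are the mean ± SD of 3 arrays. The mean of the 37 genes was 10.97, 11.05 and 11.16 on the old knock-out arrays and at most 10.93 on the others, and the macrophage mean reached 8.17 in old knock-out muscle.

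The difference between genotypes was then compared between the ages. In this interaction 0 of the 37 genes passed, beside 0% of all genes, with a smallest adjusted p of 0.871 by limma. At an unadjusted p under 0.05 there was 1 gene (Ctsl, 0.87 ± 0.37), beside 992 of all genes (5.45%). The next by p were Gabarapl1 (0.68 ± 0.35) and Ctsz (0.30 ± 0.16). Without old knock-out array 1 these were 0.43 for Ctsl, 0.27 for Gabarapl1 and 0.19 for Ctsz (adjusted p of 0.758, 0.929 and 0.931). No gene of the list was therefore shown to respond to age differently in the 2 genotypes. The young wild-type arrays serve both the age comparison of wild-type muscle and the genotype comparison of young muscle, and the old knock-out arrays likewise serve 2 comparisons.

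Further genes of the pathway, from 4 lists, moved with age in both directions. Averaged over genotypes, 16.2% of all and 23.3% of bright genes were called with age, and the share of each list is to be read beside these. Of 15 subunits of the V-ATPase, the pump that acidifies the lysosome, 6 rose and 1 fell averaged over genotypes (46.7% called). Atp6v1a, the catalytic subunit, rose 1.73-fold (0.79 ± 0.10, adjusted p = 0.000402), Atp6v1h rose 1.56-fold (0.64 ± 0.11), and Atp6v0b fell by 0.47 ± 0.09 on the log2 scale. In wild-type muscle 1 of the 15 rose (Atp6v1a), and in knock-out muscle 3 rose (Atp6v1a, Atp6v1h and Atp6v0e) and 1 fell (Atp6v0b). With genotype, Atp6v1c1 in old muscle was 1.48-fold higher in the knock-out (0.56 ± 0.11, adjusted p = 0.0293) and was 1.33-fold higher averaged over ages, and the other 14 did not pass.

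Of 25 other genes of lysosomal hydrolases and membrane proteins, 2 rose and 3 fell with age averaged over genotypes (20.0%, beside 23.3% of bright genes). Lgmn, the gene of the asparaginyl protease legumain, rose 1.76-fold (0.81 ± 0.14, adjusted p = 0.00208). Arsb (arylsulfatase B), Smpd1 (acid sphingomyelinase) and Manba (beta-mannosidase) fell by 0.61 ± 0.11, 0.46 ± 0.08 and 0.56 ± 0.11 on the log2 scale. Of these 25, 0 passed with genotype in young, old or averaged muscle.

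Of 33 other genes of the autophagy machinery, 6 rose and 4 fell with age averaged over genotypes (30.3%, beside 23.3% of bright genes). Atg9a, which encodes the lipid scramblase of the growing membrane, fell by 0.63 ± 0.07 (adjusted p = 0.000157), and Rab7, a GTPase of late endosomes, by 0.46 ± 0.07. Atg4a, which encodes a protease that trims ATG8 proteins, rose 1.28-fold (0.36 ± 0.06), and Uvrag, a partner of Beclin 1, rose 1.55-fold (0.63 ± 0.10). Nbr1, a receptor related to p62, rose 1.49-fold in knock-out muscle (0.57 ± 0.11, adjusted p = 0.00708). With genotype averaged over ages, Atg2b, a lipid transfer protein gene, was higher (0.34 ± 0.08) and Atg10, the gene of the enzyme that joins ATG12 to ATG5, was lower (-0.49 ± 0.10).

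Of 21 upstream regulators, 5 rose and 1 fell with age averaged over genotypes (28.6%, beside 23.3% of bright genes). Fnip1, a partner of folliculin in the control of AMPK and mTORC1, rose 1.52-fold (0.60 ± 0.09, adjusted p = 0.00125). Mitf, a relative of Tfeb, rose 1.22-fold, as did Tsc1, an inhibitor of mTORC1. With genotype 0 of the 21 passed. Sesn1, a sensor gene upstream of mTORC1, had a difference of 1.08 ± 0.41 in old muscle that did not pass (adjusted p = 0.182).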

How the data were processed

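The 12 arrays held 45101 probe sets each, deposited by the authors as log2 signals. The submitters' processing notes name RMA and the affy package, with versions not given in the sources used here. The deposited log2 values were used as they were. Of the probe sets, 34958 named 1 gene, 932 several and 9211 none, and only the first were used. Each gene was read from its brightest probe set by mean over the 12 arrays, and 26 of the 37 genes had more than 1. A model of 4 group means without covariates was fitted with limma 3.58.1 (R 4.3.3; 8 residual degrees of freedom), with 7 comparisons, after the procedure had been tested on simulated data. The number of arrays limits the precision.

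The members and the gene lists were chosen with earlier results of these data known, so counts over them are descriptions. Array values are given in full for the members that passed in any comparison, filled up to 10 by smallest p, and for Bnip3 and Ctsk, chosen after their values were seen. From each pathway list up to 4 genes per comparison with the smallest p could be named. Promoters were chosen among members that passed, by smallest p, except Lamp1 and Mcoln1, chosen after the matches had been counted. The rule also asked for protein sequences of the ATG8 family, which were not used here. Alternatives were a test of every probe set, averaged probe sets per gene, bright genes only, median centring, repeated quantile normalization, array weights, trended and robust variances, a fit of only the 2 groups compared, and leaving out each array or a pair of arrays.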

Additional observations from a re-analysis of the deposited data

How the results depend on the processing

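Of the calls on single genes, 0 changed direction under any alternative fitted to 1 value per gene. For genes not called, dimmer probe sets read in the opposite direction with age averaged over genotypes for Wipi1, Becn1 and Ctsl, among others. The calls of Ctsz, Sqstm1 and Gabarapl1 with age in knock-out muscle and averaged over genotypes, and of Gabarapl2 and Hexa averaged over genotypes, were kept in each alternative. The count of members called for genotype in old muscle, 0 as reported, was 2 among bright genes (Ctsz and Hexa), 1 after median centring (Ctsz), 3 with trended and robust variances (Ctsz, Hexa and Npc2), 1 without old knock-out array 1 and young wild-type array 1 together (Ctsl), and 0 to 2 when single arrays were left out. For age in wild-type muscle the count of 2 became 1 with averaged probe sets per gene, 5 with array weights, and 0 to 3 when single arrays were left out. For age in knock-out muscle the count of 5 became 3 when only the 2 groups were fitted, and 4 to 7 when single arrays were left out. Averaged over genotypes the count of 7 became 11 with array weights and 5 to 8 when single arrays were left out; the lower genes among these calls were Gaa, Tfeb and Ulk1 with array weights, Gaa and Ulk1 without old knock-out array 1, and Ctsk without old knock-out array 2 or 3. For genotype averaged over ages the count of 3 became 1 after repeated quantile normalization, 6 with array weights, and 0 to 3 when single arrays were left out. Array weights ran from 0.282 for old knock-out array 1 to 4.73 for young wild-type array 3.

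The median difference of the members in old muscle, 0.17 for genotype, was 0.118 after repeated quantile normalization and 0.124 with array weights. The median for age in knock-out muscle was 0.0495 without old knock-out array 1 and young wild-type array 1 together, and 0.0495 to 0.155 when single arrays were left out. The median of the interaction ran from 0.0564 to 0.127 and that of genotype averaged over ages from 0.0893 to 0.166 when single arrays were left out. The signal of the arrays limits dim probe sets more than bright ones, and 3 arrays per group limit every test. No paired analysis was possible because the replicate numbers follow the order of the samples and the labels pair no arrays.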
